A study of Mus musculus and Mus musculus
Oryx dammah with 30 samples.

Results

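Krüppel-like factors (Klfs) are transcription factors with zinc fingers at the carboxyl end, and 10 of their genes were followed by gene name through the mouse tables of the series: Klf2, Klf3, Klf4, Klf5, Klf6, Klf9, Klf10, Klf11, Klf13 and Klf17. Each of the 10 had a single entry in all 3 mouse tables, which list 53023 genes for both four-cell experiments and 55364 for the two-cell experiment. All values are FPKM, which divides the fragments of a gene by its length and by the depth of the library, so that levels can be compared between genes of different length within a table. The zinc fingers of Klfs bind GC boxes and CACCC boxes in promoters and enhancers, and what follows depends on the rest of the protein. Klf2, Klf4 and Klf5 belong to the network that keeps mouse embryonic stem cells in the naive state, Klf17 is a factor of germ cells and early embryos, and Klf3, Klf9, Klf10, Klf11 and Klf13 act largely as repressors that recruit CtBP or Sin3A.

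The embryos came from C57BL/6 eggs fertilized in vitro with DBA/2 sperm, and C2C12 cells, a myoblast line of C3H origin, were fused with them (nuclear transfer, NT). All NT embryos were then cultured for 24 h with 0.1 µg/ml demecolcine, a microtubule poison that holds the cell cycle, so that every group, the controls included, carries demecolcine and the C3H donor nuclei. Recipients of the four-cell α-amanitin experiment were already in demecolcine before NT, which does not hold for the earliest two-cell transfers. At the four-cell stage, NT at 46 hours post insemination (hpi) was followed by culture without α-amanitin, an inhibitor of RNA polymerase II, or with it, in 3 libraries each of pools of 3 embryos. At the two-cell stage, NT at 21 hpi or 30 hpi was followed by culture without or with α-amanitin, in 6 libraries each of pools of 5 embryos. The DNA replication experiment compared NT embryos of the groups DR and D, 3 libraries each of pools of 4 embryos, all without α-amanitin, and the labels do not say which letter marks embryos that replicated DNA after NT, so only the letters are used. In the paper NT was done at 40 or 46 hpi in this experiment, so the groups also differ in transfer time and collection time. The labels do not assign these times to the letters. Reads of the recipient and donor genomes are summed in these tables, and fewer cells and less RNA per cell cannot be told apart in pools of whole embryos. The labels do not tie a library to a separate culture, and p-values measure the spread between pools.

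The columns of the two-cell table carry the treatment but not the transfer time, and form 2 sets: NT1 to NT3 with Am1 to Am3, and R3, r1 and r2 with RAm1 to RAm3. The R columns were read as untreated because their partners add Am to the name. The 3 RAm libraries stood apart from the rest of the table: across the 17196 genes tested, Pearson's r of log2(FPKM + 1) was 0.885 to 0.902 among them, 0.638 to 0.700 with the Am libraries and 0.450 to 0.622 with the untreated libraries, while the Am libraries correlated at 0.820 to 0.886 with the untreated ones. For this reason the two-cell results are given over all libraries and within each set. Depth was 1136771 to 3101002 reads on genes in the four-cell table, as exact read numbers. It was about 2603946 to 4252278 in the DR libraries, about 6059974 to 19181387 in the D libraries and about 4712268 to 10503779 at the two-cell stage. In these tables fractional reads make the totals approximate. Every D library was deeper than every DR library. Markers of other cell types were checked in every group, and their part in the Klf results was not tested. The 10 egg markers summed to 12197 to 16106 FPKM with α-amanitin and 8709 to 9924 without it at the four-cell stage, and Dppa3 (Stella) carried nearly all of that, with a mean of 13809 and 9445. The zona pellucida genes were far lower, and Zp3 (mean 42.4 and 10.9) was the egg marker that passed the four-cell test, lower without α-amanitin. At the two-cell stage 8 of the 10 egg markers were lower without α-amanitin (Padi6, Zar1, Nlrp5, Zp2, Gdf9, Zp1, Oosp1 and Bmp15), for example Oosp1 with a mean of 768 FPKM with and 72.7 without it, while Dppa3 was higher without it (4042 with, 8843 without). Zar1 reached the filter only through the α-amanitin libraries, with at most 0.930 FPKM without α-amanitin. With spike-in scaling Zp2 alone of the 8 still passed (adjusted p = 0.0412, limma), and the log2 change of Padi6 was 0.05 (adjusted p = 0.935). With the median of ratios all 8 passed and Dppa3 did not (adjusted p = 0.0929). Of the 10 myoblast markers, summed at 87.1 to 293 FPKM with and 20.1 to 92.9 without α-amanitin at the four-cell stage, Acta2 made up most (mean 151 and 45.0), and Myog, Cdh15, Tagln, Myf5 and Col1a1 were at 0 in all untreated four-cell libraries. At the two-cell stage the sums were 40.4 to 92.0 with and 18.2 to 467 without α-amanitin, mainly Vim (mean 44.3 and 62.6) and Acta2 (14.4 and 60.7). Col3a1 was the myoblast marker that passed there (mean 1.06 and 19.4, higher without α-amanitin), with spike-in scaling Vim (adjusted p = 0.0250, limma) and Des (0.0209) were higher as well, and Myog was at 0 in all 12 libraries. The 8 cumulus cell markers summed to 0.145 to 31.6 FPKM over all groups, and in both α-amanitin experiments mainly came from Amhr2, which was higher without α-amanitin at the two-cell stage (mean 5.49 with, 11.7 without), but not with the median of ratios (adjusted p = 0.117, limma).

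At the four-cell stage, Klf2, Klf5, Klf9 and Klf13 were higher in the embryos that could transcribe, and Klf17 did not change detectably. Klf2 alone kept its call without the filter on low values, where the adjusted p from limma was 0.00677 for Klf2, 0.0673 for Klf5, 0.119 for Klf9 and 0.160 for Klf13. Of the 10 Klf genes tested, 4 were higher without α-amanitin at an adjusted p under 0.05 and 0 were lower, against 11.1% of all 9884 genes tested that were higher and 1.13% that were lower. With the 4-fold criterion added, 3 of the 10 were called higher and 0 lower, against 6.2% and 0.364% of all genes. Klf2, Klf3, Klf10 and Klf13 reached the filter only through the untreated libraries, which biases them toward a difference, so the counts and the median are a description. The median log2 change was 1.78 over the 10 genes and 0.37 over all genes tested. In 7 of the 10, every library without α-amanitin lay above every library with it, which was so for 27.6% of all genes, and the reverse, found in 7.56% of all genes, occurred in none of the 10.

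Klf2, a shear stress-responsive factor of endothelium that also acts in naive stem cells, lies on chr8:72319033-72321656 of mm10, plus strand. Its FPKM was 42.8, 26.6 and 51.1 in the libraries S15, S17 and S7 without α-amanitin, from 180, 90 and 204 reads. With α-amanitin it was 0.873 in S16, from 5 reads, and 0 in S18 and S8. The groups were far apart, and the log2 change was 5.01 (SE 0.45, Benjamini-Hochberg adjusted p = 0.00202, limma). Klf5, which acts in the trophectoderm and the inner cell mass of the blastocyst, lies on chr14:99298691-99315036, plus strand. It had an FPKM of 25.9, 32.2 and 32.6 without α-amanitin against 9.67, 3.21 and 0.968 with it. All untreated libraries lay above all treated ones, but 156 reads remained in S16, and the log2 change was 2.80 (SE 0.57, adjusted p = 0.0197, limma).

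Klf4, one of the factors used to make induced pluripotent stem cells, lies on chr4:55527143-55532466, minus strand. It stood at 8.92, 5.92 and 3.49 FPKM without α-amanitin and at 2.43, 0 and 1.86 with it. The groups did not overlap, yet the log2 change of 1.66 (SE 0.57) had an adjusted p of 0.0932 from limma. Klf17, on chr4:117757836-117765648, minus strand, had 43.9, 25.5 and 7.90 FPKM without α-amanitin and 30.5, 22.4 and 3.15 with it. The ranges overlapped, although the untreated values were higher at each rank, and the log2 change of 0.60 had a 95% interval of -1.27 to 2.47 (adjusted p = 0.666, limma). Within each group the lowest of the 3 Klf17 levels was in the library with the lowest column number, S7 or S8. With S15 to S18 alone, 2 libraries per group, the Klf17 log2 change was 0.35 and that of Klf2 was 4.67, with adjusted p-values from limma of 0.619 and 0.0355.

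Among the factors known as repressors, Klf9, a hormone-responsive gene on chr19:23141226-23166911, plus strand, had 11.7, 4.19 and 8.08 FPKM without α-amanitin and 2.57, 0.539 and 0.193 with it, and its log2 change was 2.17 (SE 0.55, adjusted p = 0.0381, limma). Klf13, on chr7:63886351-63938915, minus strand, was weak in all libraries, with 2.45, 1.52 and 1.66 FPKM against 0.214, 0.117 and 0.0836, and a log2 change of 1.33 (SE 0.32, adjusted p = 0.0330, limma). Klf13 overlaps the genes Gm27252 and E030018B13Rik on the opposite strand, and Klf3 overlaps Gm20033 on the opposite strand and C230096K16Rik on its own. The library kit is not strand-specific, so reads from the overlapping stretches cannot be assigned with certainty.

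Klf10, a gene induced early by TGF-β, had 98, 13 and 12 reads without α-amanitin and none in S16, S18 or S8. The untreated levels were 10.3, 1.70 and 1.33 FPKM. Against a limit of 3 reads in each treated library it was at least 10.1-fold higher, and without S15, which held 98 of its reads, at least 3.45-fold. The fitted change missed the threshold (adjusted p = 0.0543, limma), and was 1.33 without S15 against 2.05 with it. Klf3, a CtBP-binding repressor, had 2.50, 2.43 and 1.97 FPKM against 0.832, 0.156 and 0.504, with an adjusted p of 0.0680. Klf6, a widely expressed early response gene, had 8.60, 1.49 and 5.58 against 0.147, 0 and 1.58, and overlapped by a single treated library. Klf11, the second TGF-β-induced member, had 7.28, 1.76 and 1.49 against 0.892, 0 and 2.03, and also overlapped. Library S15 held the highest untreated level of Klf3, Klf4, Klf6, Klf9, Klf10, Klf11, Klf13 and Klf17, and S18 had 0 reads of Klf2, Klf4, Klf6, Klf10 and Klf11.

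**Figure D1:**
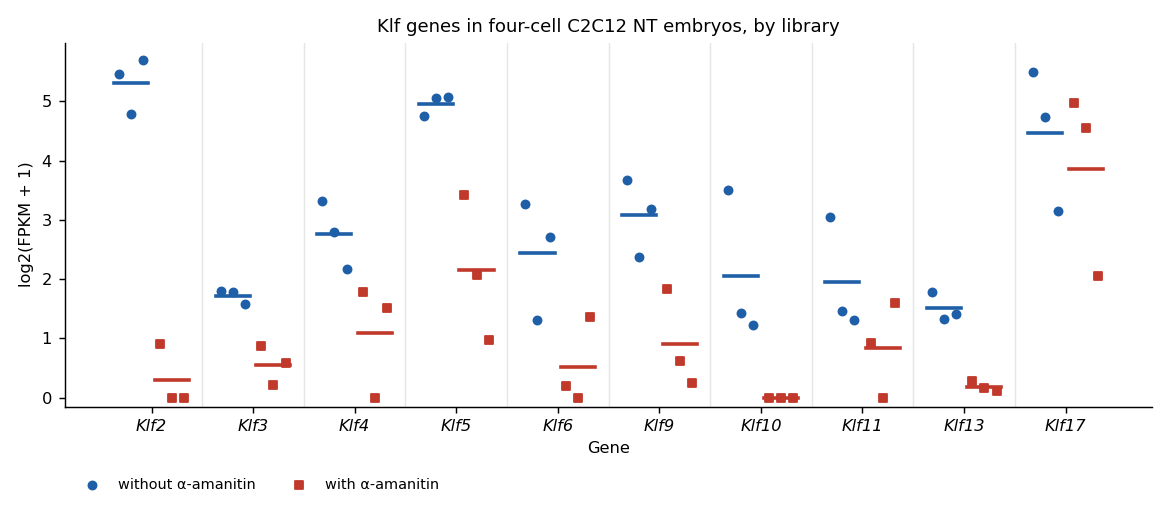
FPKM of the 10 Klf genes in each four-cell library on a log2(FPKM + 1) axis, with circles for the 3 libraries without α-amanitin, squares for the 3 with it, and bars for the group means of the plotted values. Klf2 sits between 26.6 and 51.1 FPKM without α-amanitin and at 0 or 0.873 FPKM with it, while the Klf17 points of both groups overlap.

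The Klf2 call held with each library left out in turn (adjusted p from limma between 0.00306 and 0.0246). Klf5 passed only without S16 or S8 and Klf9 only without S16, and Klf13 passed in none of the 6 fits (0.0562 to 0.0951). When the recovered reads were tested with limma voom, 7 of the 10 were higher, all but Klf4, Klf11 and Klf17, against 11.4% of all genes, and without the filter on low values only Klf2 passed, against 1.23%. With a pseudocount of 0.1, Klf9 (adjusted p = 0.0722, limma) and Klf13 (0.0536) missed the threshold and Klf10 (0.0333) passed. Scaled by the median of ratios, 3 were higher against 7.69%, and Klf9 missed the threshold (adjusted p = 0.0548, limma).

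Ratios between Klf genes within a library do not depend on how libraries are scaled to each other. Without α-amanitin the ratio of Klf2 to Klf17 in FPKM was 0.975, 1.04 and 6.47 at the four-cell stage, and with α-amanitin it was 0.0286, 0 and 0. The groups did not overlap. In the two-cell libraries the ratio was 1.10, 0.374 and 1.78 in NT1 to NT3 and 0.239, 0.249 and 0.301 in R3, r1 and r2, while it was 0.0819, 0.0495 and 0.0117 in Am1 to Am3 and 0 in the RAm libraries. In 8 of the 9 α-amanitin libraries of both stages Klf17 took between 32.1% and 91.5% of the summed FPKM of the 10 genes, and in the ninth, S8, it took 30.4%. In all 9 it was the most abundant of them.

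The promoters of Klf2, Klf9 and Klf17 are shown as examples of different FPKM levels under α-amanitin: almost nothing of Klf2, Klf17 at FPKM levels that overlapped those of untreated embryos, and Klf9 at levels that depended on the column set. The RefSeq table (GRCm38.p6, the build mm10) held a promoter for 8 of the 10 genes, and Klf5 and Klf10 had no entry. Each sequence is the 250 bases before the RefSeq start of transcription, which can differ from the gene start of the annotation used for the positions above, so that the Klf2 window runs a short way into the gene as placed there. The letters run 5′ to 3′ on the strand of the gene, with capitals marking GGGCGG (the GC box) and CCACNCCC (a CACCC box), searched on both strands. The Klf2 window is chr8:72318812-72319061 on the plus strand, the Klf9 window is chr19:23140976-23141225 on the plus strand and the Klf17 window is chr4:117765667-117765916 on the minus strand.
Klf2: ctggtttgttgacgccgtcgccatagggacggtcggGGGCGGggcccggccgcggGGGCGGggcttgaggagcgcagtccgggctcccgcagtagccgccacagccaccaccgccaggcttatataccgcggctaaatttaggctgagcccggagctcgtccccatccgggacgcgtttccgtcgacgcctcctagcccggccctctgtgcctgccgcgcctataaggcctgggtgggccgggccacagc
Klf9: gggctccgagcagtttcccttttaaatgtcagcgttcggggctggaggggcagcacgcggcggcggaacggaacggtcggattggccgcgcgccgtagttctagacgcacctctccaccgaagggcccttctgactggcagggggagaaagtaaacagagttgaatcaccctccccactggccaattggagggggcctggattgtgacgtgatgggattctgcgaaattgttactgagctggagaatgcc
Klf17: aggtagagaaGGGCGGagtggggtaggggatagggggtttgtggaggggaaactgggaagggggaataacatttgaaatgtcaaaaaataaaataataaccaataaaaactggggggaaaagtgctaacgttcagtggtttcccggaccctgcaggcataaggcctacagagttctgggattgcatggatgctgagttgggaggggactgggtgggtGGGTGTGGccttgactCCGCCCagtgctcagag
The Klf2 window held 2 GC boxes and no CACCC box, and 71.2% of its bases were G or C. The Klf17 window held 2 GC boxes and 1 CACCC box at 52.0% GC, and the Klf9 window held neither motif at 59.6% GC. A GC box was found in 7 of the 8 Klf promoters and in 32.7% of 32851 promoters of the table, and a CACCC box in 2 of the 8 and in 15.9% of all. GC content in all promoters had a median of 52.4%. These are matches of letters, and binding was not measured.

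At the two-cell stage, Klf2, Klf3, Klf5, Klf9 and Klf11 rose without α-amanitin on the FPKM scale. Klf4, Klf6, Klf10 and Klf17 did not pass the test on that scale, though they did with spike-in scaling. Of the 10 genes all but Klf13 were expressed enough to be tested. On the FPKM scale 5 of these 9 were higher and 0 lower at an adjusted p under 0.05, against 38.9% of 17196 genes that were higher and 8.51% that were lower. With the 4-fold criterion 3 were called higher and 0 lower, against 11.1% and 1.58% of all genes. Klf2 and Klf3 reached the filter only through untreated libraries, and both also passed without it. Klf10 reached it through NT1 to NT3, with RAm2 (1.73 FPKM) the only other library at 1 FPKM or more. This biases Klf2, Klf3 and Klf10 toward a difference, so the counts and the median are a description. The median log2 change was 1.20 over the 9 genes and 0.67 over all genes tested. In 4 of the 10, Klf2, Klf3, Klf5 and Klf11, every untreated library lay above every treated one, which held for 16.3% of all genes, and in none did every untreated library lie below, as 2.95% of all genes did.

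Klf2 had 54.8, 14.7 and 12.6 FPKM in NT1 to NT3 and 11.6, 8.16 and 12.4 in R3, r1 and r2. It had 0.833, 0.464 and 0.183 in Am1 to Am3 and was listed at 0 in all RAm libraries. NT1 was far above the other untreated libraries, and without it the log2 change was 3.39 instead of 3.74 (SE 0.39, adjusted p = 3.6e-05 over all libraries, limma). Klf5 was even across both untreated sets, with 14.2, 11.3 and 8.18 FPKM in NT1 to NT3 and 14.5, 9.88 and 10.3 in R3, r1 and r2. Under α-amanitin it was 1.88, 2.14 and 1.85 in Am1 to Am3 and 0, 0.740 and 0.413 in RAm1 to RAm3, and the log2 change was 2.61 (SE 0.33, adjusted p = 0.000127, limma). Klf3 ranged from 1.20 to 3.61 FPKM with a median of 1.75 in untreated libraries and from 0 to 0.668 with a median of 0.0508 in treated ones, and its log2 change was 1.42 (SE 0.25, adjusted p = 0.000972, limma).

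Klf9 had the largest log2 difference between the α-amanitin libraries of the sets among the 9 genes tested. It had 2.38, 6.59 and 4.39 FPKM in Am1 to Am3 but 0.0440, 0 and 0.0446 in RAm1 to RAm3, where other transcripts such as Klf17 were at 27.5, 11.5 and 42.0. Without α-amanitin Klf9 was at 9.01, 11.1 and 4.72 in NT1 to NT3 and at 15.8, 12.4 and 14.4 in R3, r1 and r2. The log2 change without α-amanitin was 0.78 (SE 0.42, adjusted p = 0.256, limma) within NT and Am and 3.88 (SE 0.22, adjusted p = 2.02e-05) within R and RAm. The difference between the sets, 3.10 on the log2 scale (SE 0.48), had an adjusted p of 0.000305 in a limma fit with an interaction term, and it kept its sign and an adjusted p under 0.05 when libraries were scaled to spike-ins or by the median of ratios. Over all libraries the Klf9 change was 2.33 (adjusted p = 0.00433, limma).

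Klf10 showed the opposite difference. It had 6.58, 1.85 and 5.36 FPKM in NT1 to NT3 and only 0.172, 0.818 and 0.0980 in R3, r1 and r2. With α-amanitin the values were 0.102, 0.128 and 0.809 in Am1 to Am3 and 0.0507, 1.73 and 0.137 in RAm1 to RAm3, so that the untreated NT libraries stood above the other 9. The log2 change was 1.98 (SE 0.44, adjusted p = 0.0375, limma) within NT and Am and -0.16 (adjusted p = 0.740) within R and RAm. The difference was -2.14 (SE 0.63, adjusted p = 0.0162, limma with an interaction term), also with both other scalings. Klf10 reached the filter through NT1 to NT3, where it was high, so its values are a description. For Klf5 the change was larger by 1.18 in the R and RAm set (adjusted p = 0.0319, limma), but with the median of ratios the adjusted p was 0.221. Such differences were common, since 44.5% of all genes passed this test.

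Under α-amanitin Klf4 stood higher in Am1 to Am3, with 7.61, 6.21 and 6.15 FPKM, than in RAm1 to RAm3, with 3.06, 1.01 and 1.38. Untreated libraries had 10.2, 7.05 and 12.2 FPKM in NT1 to NT3 and 5.01, 4.98 and 4.29 in R3, r1 and r2. The Klf4 change was 0.47 (SE 0.27, adjusted p = 0.282, limma) within NT and Am and 1.10 (SE 0.31, adjusted p = 0.0162) within R and RAm, and the difference of the sets did not pass the test (0.62, SE 0.42, adjusted p = 0.247). Over all libraries the Klf4 change was 0.79 (adjusted p = 0.127, limma). It was 1.86 with spike-in scaling (adjusted p = 0.0011) and 0.17 with the median of ratios (adjusted p = 0.699). Between the α-amanitin libraries of the sets, Klf2, Klf4, Klf5 and Klf9 were higher in Am than in RAm at an adjusted p under 0.05, by 0.56, 1.51, 1.13 and 2.33 on the log2 scale, as 50% of all genes differed in either direction. Between the untreated libraries no Klf gene passed, with Klf10 nearest (adjusted p = 0.106, limma), against 0.14% of all genes.

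Klf17 was the most abundant Klf gene in each two-cell group by its median. It ranged from 7.06 in NT3 to 49.6 in NT1, with a median of 40.3, in untreated libraries and from 9.38 to 42.0, with a median of 13.6, in treated ones, and the log2 change of 0.88 had a 95% interval of -0.21 to 1.97 (adjusted p = 0.160, limma). Without NT3 the change was 1.28 with an adjusted p of 0.0274. With spike-in scaling the Klf17 change was 2.24 (SE 0.60, adjusted p = 0.00337, limma), and with the median of ratios it was 0.08 (adjusted p = 0.923). Klf11 ranged from 2.49 to 6.00 FPKM in untreated and from 0.522 to 2.42 in treated libraries, and was 1.20 higher on the log2 scale (SE 0.31, adjusted p = 0.00783, limma). With the median of ratios the Klf11 change was 0.61 (adjusted p = 0.149, limma), and Klf11 did not pass within NT and Am. Klf6 varied as much within groups as between them, from 0.163 to 5.71 untreated and 0.0326 to 4.04 treated. Klf13 was below the filter, with 0.685 to 1.03 FPKM without and 0.0449 to 0.740 with α-amanitin, and the difference in mean log2(FPKM + 1) was 0.47 (n = 6 in each group, exact permutation test, two-sided, p = 0.00866, 1 gene tested). In the limma fit without the filter, Klf13 had an adjusted p of 0.0789 and did not pass.

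**Figure D2:**
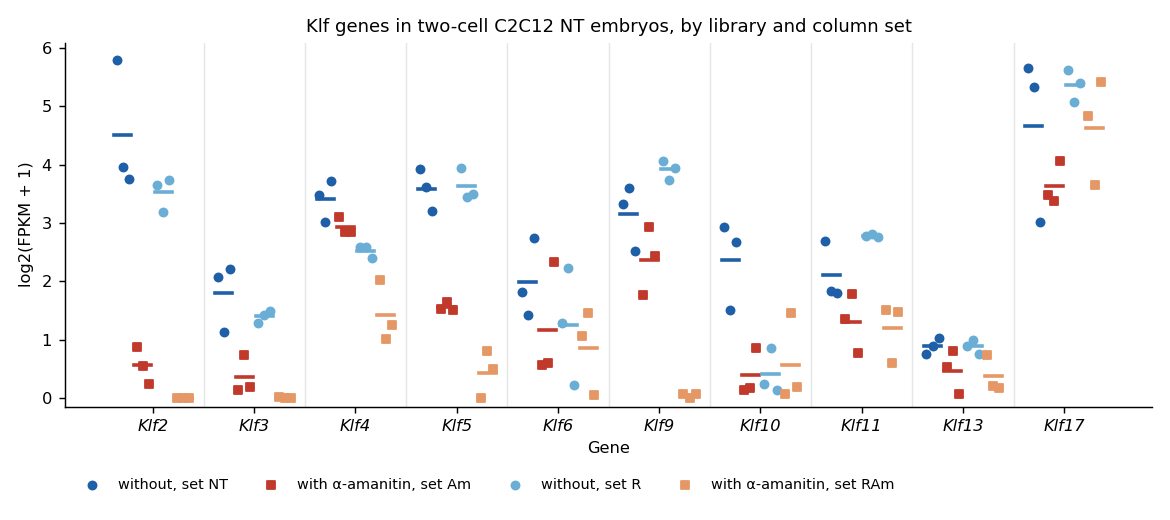
FPKM of the 10 Klf genes in each two-cell library on a log2(FPKM + 1) axis, with circles for libraries without α-amanitin, squares for those with it, separate columns of points for the sets NT, Am, R and RAm, and bars for the means of the plotted values. Klf9 is at 2.38 to 6.59 FPKM in Am and at most 0.0446 in RAm, sets between which 50% of all genes differed. Klf10 is at 1.85 to 6.58 FPKM in NT and at most 0.818 in R, and did not pass the test between these untreated sets.

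Within NT and Am, 4 of the 9 tested Klf genes were higher (Klf2, Klf3, Klf5 and Klf10) against 8.54% of all genes, and within R and RAm 6 were higher (Klf2, Klf3, Klf4, Klf5, Klf9 and Klf11) against 55.6%. Klf2, Klf3 and Klf10 reached the filter through untreated libraries, which biases these counts. In neither set was a Klf gene lower, against 2.57% and 14% of all genes. With the column set as a covariate 6 were higher, the 5 named above and Klf4 (adjusted p = 0.0223, limma), against 44.6%, and without the filter 5 of 10 were higher against 14.2%. With the 3 Am libraries alone as the treated group, 5 were higher against 16.7% of all genes: Klf2 by 3.47, Klf3 by 1.25, Klf5 by 2.04, Klf9 by 1.16 and Klf11 by 1.14 on the log2 scale. The ERCC spike-ins, synthetic RNAs added to the samples, took 2.38% to 6.26% of the signal in untreated and 6.54% to 11.3% in α-amanitin libraries. With libraries scaled to 47 of these RNAs, the median of all genes moved to 1.49, and all 9 tested Klf genes were higher, against 71.4% of all genes. Scaled by the median of ratios, that median was 0.24 and 4 were higher, Klf2, Klf3, Klf5 and Klf9, against 21.9%. Over all genes, calls of 4-fold or more were 1906 higher and 272 lower on the FPKM scale, 5885 and 28 with spike-in scaling, and 878 and 769 with the median of ratios.

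**Figure D3:**
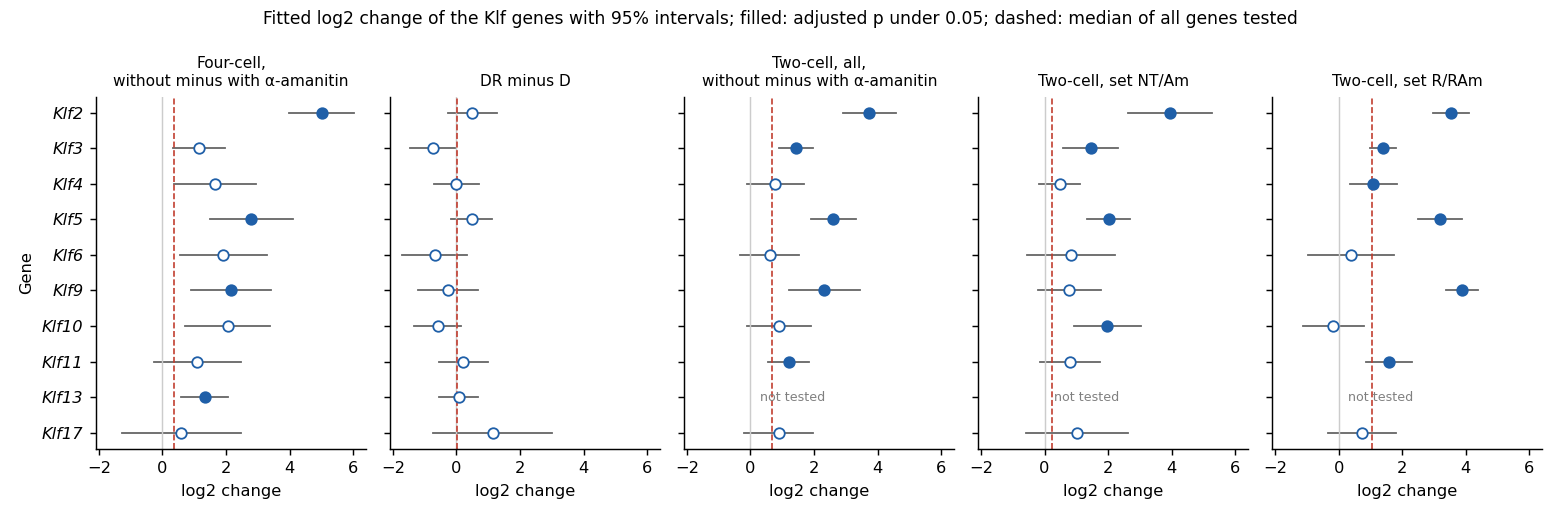
Fitted log2 change of each Klf gene with its 95% interval, for the four-cell comparison, DR minus D, the two-cell comparison over all libraries and within each column set; filled points have an adjusted p under 0.05 and the dashed line is the median of all genes tested. Klf2 lies at 3.53 or above in every α-amanitin comparison, and Klf9 moves from 0.78 within NT and Am to 3.88 within R and RAm.

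In the DNA replication experiment, no Klf gene passed the test between DR and D. Of the 10 genes tested 0 passed in either direction, as 0% of 14570 genes did (limma with Benjamini-Hochberg adjustment), and 897 genes had an unadjusted p under 0.05, none of them a Klf gene. Klf5 was even in DR, at 31.6, 31.0 and 31.9 FPKM, and lay lower in D, at 15.9, 29.4 and 23.6. These groups did not overlap, and the log2 change, DR minus D, was 0.48 (95% interval -0.16 to 1.12, adjusted p = 0.796). Klf3 had 3.06, 4.44 and 2.37 FPKM in DR and 5.65, 4.79 and 7.73 in D. It was the only member with all DR libraries below all D libraries, and its log2 change was -0.72 (SE 0.31, unadjusted p = 0.0501, adjusted p = 0.788, limma). Nonoverlapping groups occurred in 8.21% of all genes with DR above D and in 3.99% with DR below D. Depth did not overlap either, and genes above 0 numbered 22800 to 25833 in DR and 26456 to 28598 in D. The part of depth in these differences was not tested, and depth cannot be told apart from group.

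Klf2 had 39.6, 58.2 and 27.9 FPKM in DR and 24.3, 24.8 and 36.6 in D, and the groups overlapped. Klf17 spread most, with 176, 29.3 and 60.6 in DR and 44.0, 58.6 and 10.5 in D, and its log2 change of 1.14 had a 95% interval of -0.73 to 3.01. Library D5 had the lowest Klf17 level and the highest ratio of Klf2 to Klf17 of the 6, at 3.50, and DR1 had the highest Klf17 level and the lowest ratio, at 0.225. Klf4 was at 4.69 to 7.85 and 4.49 to 7.33 FPKM (95% interval of the log2 change -0.72 to 0.70). Klf9 was at 5.77 to 9.73 and 6.72 to 17.4, Klf10 at 1.75 to 3.15 and 2.82 to 5.17, Klf6 at 0.589 to 3.53 and 2.97 to 4.80, Klf11 at 1.50 to 2.32 and 0.694 to 2.32, and Klf13 at 1.05 to 1.76 and 1.15 to 1.63. These 5 genes overlapped between the groups. With scaling to 19 spike-in RNAs, whose factors ran from 0.0945 to 5.65, the median of all genes moved from 0.02 to -1.41 and all 10 Klf genes were below 0, at -2.09 to -0.61, with no call.

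**Figure D4:**
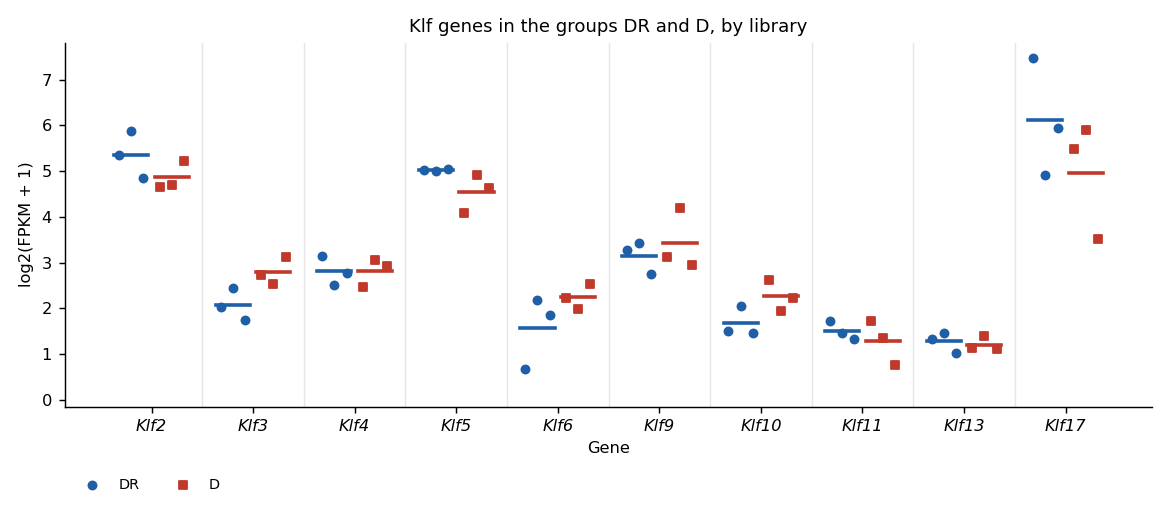
FPKM of the 10 Klf genes in each library of the groups DR (circles) and D (squares) on a log2(FPKM + 1) axis, with bars for the group means of the plotted values. The groups overlap for all genes except Klf3 and Klf5, and the Klf17 points run from 10.5 to 176 FPKM.

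Side by side over the tables, which were normalized separately, the untreated order by median was Klf2, Klf5 and Klf17 in the four-cell NT libraries, at 42.8, 32.2 and 25.5 FPKM, and Klf17 led at the two-cell stage, at 40.3 FPKM, ahead of Klf2, Klf9 and Klf5, at 12.5, 11.8 and 10.8. The two-cell table gives Klf9 a length of 4815 bases, against 3263 bases in the four-cell tables, so its FPKM is not on the same footing between tables, and its place between Klf2 and Klf5 rests on the length used. In DR and in D the order was Klf17, Klf2 and Klf5. The ranges of these 3 genes overlapped in every untreated group, at the two-cell stage through NT1 to NT3. In R3, r1 and r2 alone, Klf17, at 32.8 to 48.5 FPKM, lay above Klf2, at 8.16 to 12.4, and Klf5, at 9.88 to 14.5. Klf13 had the lowest median of the 10 in each of these 4 groups.

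Other genes of the pathway were taken from lists, and their counts are read against 11.1% of all genes higher and 1.13% lower at the four-cell stage and 38.9% and 8.51% at the two-cell stage. Of 8 further Klf genes, 3 were tested at the two-cell stage: Klf16 was higher without α-amanitin (log2 change 1.02, adjusted p = 0.00654, limma) and Klf7 was lower (-1.11, adjusted p = 0.0116), though with spike-in scaling the Klf7 change was -0.23 with an adjusted p of 0.501. Klf16 reached the filter only through untreated libraries, with at most 0.714 FPKM under α-amanitin, which biases it toward a difference. Sp factors share the GC box with Klfs. All 4 that were tested at the two-cell stage, Sp1, Sp2, Sp3 and Sp6, were higher without α-amanitin, by 0.70 to 1.84, of which Sp2 was lost with the median of ratios (adjusted p = 0.0846), and 0 of 4 passed at the four-cell stage. Among 6 corepressors that Klf proteins bind, Hdac2 was higher at the four-cell stage, and Hdac1 higher and Sin3b lower at the two-cell stage. With the median of ratios Hdac2 (adjusted p = 0.0725) and Hdac1 (0.201) did not pass, and with spike-in scaling Sin3b was at 0.21. Of the upstream receptors, kinases, transcription factors and ubiquitin ligases, Smad2 and Smad4 were higher at the four-cell stage (2 of 5 tested). Smad2, Mef2a and Btrc were higher (3 of 9 tested, a share below that of all genes) and Wwp1 lower at the two-cell stage. With the median of ratios the four-cell Smad4 (adjusted p = 0.0795) and the two-cell Smad2 (0.105) and Mef2a (0.284) did not pass. Wwp1, a ubiquitin ligase that acts on Klf2 and Klf5, was lower by 1.86 on the log2 scale, and by 0.64 (adjusted p = 0.171) with spike-in scaling. In the naive network Zfp42, Nr5a2, Tbx3 and Tfcp2l1 were higher at the four-cell stage (4 of 9 tested), also with the median of ratios. At the two-cell stage Nr5a2, Sall4 and Esrrb were higher and Nanog lower (of 5 tested), of which Esrrb was lost with the median of ratios (adjusted p = 0.114) and Nanog was at -0.14 with spike-in scaling. Tbx3 at the four-cell stage (at most 0.779 FPKM with α-amanitin) and Esrrb at the two-cell stage (at most 0.402) reached the filter only through untreated libraries. This biases both toward a difference. No gene of any list passed between DR and D.

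Over the 12 two-cell libraries, the genes whose log2(FPKM + 1) was most like that of Klf5 were Gm13915 (Pearson's r = 0.991), Gja1 (0.987) and Twistnb (0.984). For Klf4 they were Ndfip1 (0.957), Mrpl14 (0.956) and Fabp3-ps1 (0.954), and for Klf17 Dctd (0.921), Rnf114 (0.915) and Spop (0.912). These values describe 12 points that share treatment and column set, among 17196 genes, and Klf4 and Klf17 themselves had an r of -0.17.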

How the data were processed

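Libraries were made with SMART-seq v4 and Nextera XT, which do not mark strand. Per the labels and methods, the authors trimmed reads with Trimmomatic, Trim Galore and cutadapt, aligned them to mm10 with STAR, counted with featureCounts, and deposited FPKM per gene (versions not given in the sources used here). In the four-cell table the FPKM values are whole multiples of 1 read for 100% of values, within 0.01 reads. From the deposited FPKM, log2(FPKM + 1) was fitted with limma 3.58.1 (R 4.3.3, trend) for genes at 1 FPKM or more in 3 libraries, with Benjamini-Hochberg adjustment over all genes tested. Fold changes are on that log2 scale and understate the change of low genes. A call of 4-fold needs an adjusted p under 0.05 as well. Klf13, below the filter at the two-cell stage, had an exact permutation test (SciPy 1.17.1). The script was tested on simulated data. In all 24 libraries were used and 4 columns of per-library values were not. All 10 Klf genes are named, and genes of the other lists if called or most alike, with marker genes named as a check of cell types. The members and lists were chosen with earlier results of these data known. Alternatives were another pseudocount, no filter, median-of-ratios and spike-in scaling, limma voom, no mean-variance trend, a replicate block and leaving out each library. The fits within column sets, with the set as a covariate or interaction, with S15 to S18 alone and with Am alone were chosen after seeing the data. Where samples are pooled embryos, p-values measure the spread between pools.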

Additional observations from a re-analysis of the deposited data

Results flagged for a closer look

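Over 20 groups of 6 two-cell libraries, a library stood apart from its group in 2, and chance gives about 1 in 20. Klf2 was at 54.8 FPKM in NT1, with the next untreated library at 14.7. Klf3 was at 0.668 FPKM in Am2, with the next α-amanitin library at 0.135. The effect of α-amanitin also differed between the column sets for 3 Klf genes in the limma fit with an interaction term: the log2 change without α-amanitin was larger in R and RAm than in NT and Am by 1.18 for Klf5 (adjusted p = 0.0319) and by 3.10 for Klf9 (adjusted p = 0.000305), and for Klf10 the difference was -2.14 (adjusted p = 0.0162). Of all genes 44.5% passed this test, so 3 of the 9 Klf genes tested is a share below the background. The transfer time of the sets is not named in the columns, and set and transfer time cannot be told apart.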

How the results depend on the processing

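At the four-cell stage 613 genes were called higher and 36 lower, with 4 Klf genes at an adjusted p under 0.05. Without the filter on low values these were 259, 5 and 1, with limma voom 936 genes were higher and 7 Klf genes passed, and with S15 to S18 alone they were 86, 5 and 1. With a pseudocount of 0.1, Klf2, Klf5 and Klf10 passed, and Klf9 (adjusted p = 0.0722, limma) and Klf13 (0.0536) did not. Leaving out each library gave 298 to 797 higher, 7 to 58 lower and 1 to 3 Klf genes. The Klf17 change ran from -0.30 (without S8) to 1.25. Between DR and D no gene was called under any setting that left out a library. With spike-in scaling the sign turned for Klf2 (-1.13), Klf5 (-1.14), Klf11 (-1.26), Klf13 (-1.20) and Klf17 (-0.61). Klf4 was at 0.14 without DR2, 0.0099 without DR3, 0.11 without D4 and 0.05 without D5, in a range of -0.19 to 0.14. Klf13 was at -0.030 without DR2 (to 0.19), Klf9 at 0.12 without D4 (from -0.50) and Klf11 at -0.042 without D5 (to 0.44). At the two-cell stage 1906 genes were called higher and 272 lower, with 5 Klf genes. The counts were 4411 and 639 with a pseudocount of 0.1, 878 and 769 with the median of ratios, 5885 and 28 with spike-in scaling (9 Klf genes), 533 and 70 with Am alone as the treated group, 408 and 65 within NT and Am, and 4759 and 888 within R and RAm, where Klf10 turned to -0.16. Leaving out each library gave 1364 to 2472 higher, 180 to 380 lower and 5 to 6 Klf genes. The cause of these shifts was not tested. Of the values for single Klf genes under the alternatives at the four-cell stage, 91 kept their direction and side of the threshold, 24 lost the call, 4 gained it and 1 changed sign. In DR and D 98 kept both and 12 changed sign, and at the two-cell stage 186 kept both, 3 lost the call, 8 gained it and 1 changed sign.

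In the two-cell replicate block, 5 Klf genes passed, and 1878 genes were called higher and 273 lower. Deviations of same-numbered libraries correlated at 0.0149 to 0.0654. This cannot decide whether they were made or cultured together, since differently numbered libraries were not compared. No paired analysis of the four-cell or DR and D libraries was run. The four-cell columns do not carry the replicate numbers of the labels. They fall in adjacent numbers (S7 and S8, S15 and S16, S17 and S18), but no label pairs them. The columns DR1 to DR3 share a single number with D1, D4 and D5. Spike-in scaling of the four-cell table, limma voom on the other tables and a covariate for transfer time were not run. Depth limits the four-cell values, where Klf13 rests on 1 to 5 reads in each α-amanitin library.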
